A study of Mus musculus with 6 samples.

Results

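The genes described are the core of the oxygen-sensing pathway and 2 growth factors, Vegfa as its best-known target and Vegfb as a relative of it: the hypoxia-inducible factor (HIF) subunits Hif1a, Epas1 and Arnt, the hydroxylases Egln1, Egln2, Egln3 and Hif1an, the ubiquitin ligase subunit Vhl, and the vascular endothelial growth factors Vegfa and Vegfb. They were chosen by symbol and make up 10 of the 24459 genes and 35 of the 75457 isoforms counted. All 10 passed the filter on low counts. RNA came from perihematomal brain tissue, the tissue around the clot, of wild-type mice at day 5 after intracerebral haemorrhage. One group of 3 samples received TEPP-46, an activator of the M2 isoform of pyruvate kinase, and the other group of 3 received vehicle, on consecutive days after the haemorrhage; both groups had the haemorrhage. The sources used here give no strain, sex, age or dose. The labels do not state whether each sample is a different animal, so p-values measure only the spread between these samples.

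In cells with enough oxygen, the EGLN enzymes hydroxylate prolines of the HIF alpha subunits, and VHL, the substrate-binding subunit of a ubiquitin ligase, recognises the hydroxylated protein and sends it for degradation. HIF1AN hydroxylates an asparagine of the same subunits and blocks their contact with coactivators. When oxygen falls, the alpha subunit persists, pairs with ARNT and binds short DNA motifs near genes of glucose use, iron handling and blood vessel growth, of which Vegfa is the best known. Because this control acts on the HIF alpha protein, the RNA of the subunits does not measure the activity of the pathway, and no protein was measured.

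Long reads from a nanopore cDNA-PCR kit were counted in 6 libraries, named by their columns: C1, C2, C4 for vehicle, T1, T2, T3 for TEPP-46. Values of single libraries are given in that order. Library totals were between 5286426 and 6025064 counts, and levels are in CPM, the count scaled to this total. The libraries differed in markers of cell types. Summed over 8 genes each, activated microglia and macrophage markers were between 173 CPM (C4) and 4990 CPM (C2) in vehicle and between 590 and 2905 CPM in TEPP-46. The oligodendrocyte markers stood at 5370 CPM in C4 against 13193 to 15374 CPM in the other 5 libraries. Choroid plexus markers were at 209 CPM in C2 and 182 CPM in C4 against 2244 to 4982 CPM in the other 4. Neuron markers (5582 to 7470 CPM), astrocyte markers (2250 to 3360 CPM) and endothelial markers (291 to 392 CPM) were present in every library. Ependyma markers, summed over 5 genes, were at 51.5, 71.2 and 20.1 CPM in vehicle and at 78.0, 85.0 and 84.0 CPM in TEPP-46, with the groups apart; their part in the results was not tested. Neutrophil markers, summed over 6 genes, were between 2.65 CPM (C4) and 49.99 CPM (C2) in vehicle. In TEPP-46 they were between 10.95 CPM (T1) and 40.89 CPM (T3). Of these genes, Lcn2 had 29, 228 and 4 counts in vehicle and 43, 80 and 175 in TEPP-46. Ly6g and Retnlg were at 0 counts in all 6 libraries.

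None of the 10 genes passed the test between TEPP-46 and vehicle, the quasi-likelihood F test of edgeR, adjusted after Benjamini-Hochberg over all 14441 genes tested. That fit called 0% of genes, with 0.380 as its smallest adjusted p. Before adjustment, 3 of the 10 genes had a p under 0.05 (Hif1a with higher, Vegfa and Vegfb with lower values in TEPP-46), where 5.93% of all tested genes did, 1.88% higher and 4.05% lower. DESeq2 called 0.553% of its genes and none of the 10. The median log2 fold change of TEPP-46 over vehicle was -0.15 over the 10 genes and 0.01 over all genes tested, and 2 of the 10 values were positive. The groups did not overlap in 2 of the 10 genes, Hif1a and Vegfb, where 11.4% of tested genes did not overlap, 5.67% with TEPP-46 above and 5.76% with TEPP-46 below.

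**Figure D1:**
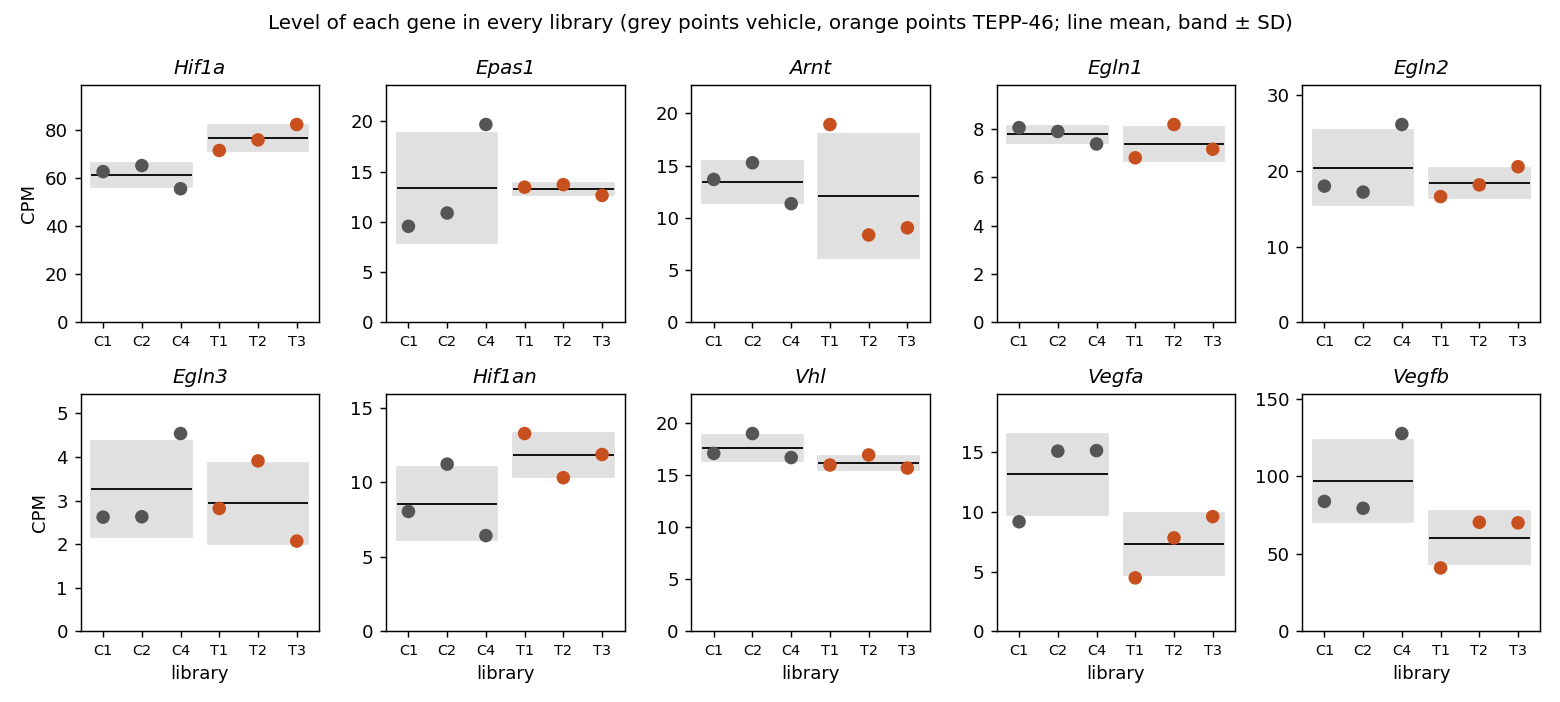
Level of each of the 10 genes (y axis, CPM, linear, starting at 0) in every library (x axis; grey points vehicle C1, C2, C4, orange points TEPP-46 T1, T2, T3), with the group mean as a line and the SD as a band (n = 3 each). Hif1a lies between 55.6 and 65.3 CPM in vehicle and between 71.5 and 82.3 CPM in TEPP-46, and Vegfb lies between 79.5 and 128 CPM in vehicle and between 41.0 and 70.4 CPM in TEPP-46; all other genes have overlapping groups.

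Hif1a (ENSMUSG00000021109, GRCm38 chr12:73901375-73947530, plus strand) encodes the widely expressed oxygen-regulated alpha subunit. It stood at 62.7, 65.3 and 55.6 CPM in the vehicle libraries and at 71.5, 75.9 and 82.3 CPM in the TEPP-46 libraries. Every TEPP-46 library lay above every vehicle library. The means were 61.2 ± 5.00 CPM in vehicle and 76.6 ± 5.44 CPM in TEPP-46 (mean ± SD, 3 libraries each), a log2 fold change of 0.31 (SE 0.13; 95% interval 0.01 to 0.61). Its unadjusted edgeR p was 0.0451 and its Benjamini-Hochberg adjusted p 0.834, so the difference did not pass. In bulk tissue, fewer cells that express a gene and less of its RNA per cell cannot be told apart, which holds for every value here. The authors' deposited table gives Hif1a a p of 0.0864 and a log2 fold change of 0.26. Hif1a overlaps the gene Gm49321, which had at most 3 counts in a library, and the antisense gene Gm15283; whether the counting used strand is not stated.

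The 2 most abundant annotated Hif1a isoforms, Hif1a-201 and Hif1a-202, start at different first exons and encode 836 and 810 codons. The stretches that set them apart are shown because long reads can tell these forms from each other. In the first line, capitals mark the coding part of the first exon of Hif1a-201 (chr12:73908290-73908324), and the lower-case letters after it are the start of the next exon, where the coding part of Hif1a-202 begins. In the second, capitals mark 42 coding bases at the start of exon 11 (chr12:73941688-73941729) that Hif1a-201 has and Hif1a-202 lacks, between 15 bases of each neighbouring stretch. Both are read 5′ to 3′ from the GRCm38 transcripts, on the plus strand.
Hif1a-201 first coding stretch: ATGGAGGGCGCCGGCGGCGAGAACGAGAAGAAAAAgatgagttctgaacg
Hif1a-201 exon 11 stretch: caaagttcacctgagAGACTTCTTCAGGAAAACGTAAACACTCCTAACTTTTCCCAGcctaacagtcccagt

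Hif1a-201 had 145, 152 and 124 counts in the vehicle libraries and 171, 172 and 188 in the TEPP-46 libraries. Among the 22 tested isoforms of the 10 genes, it alone had every TEPP-46 CPM above vehicle, a pattern that 5.73% of all tested isoforms had. Its log2 fold change was 0.26 (SE 0.16), with an unadjusted edgeR p of 0.129 and an adjusted p of 0.984. Hif1a-202 had 47, 45 and 69 counts in vehicle and 80, 78 and 52 in TEPP-46, with overlapping groups. The new isoform ONT.2698.7, a transcript model of the authors with no reference identifier, had 81, 99 and 70 counts in vehicle and 104, 104 and 108 in TEPP-46. ONT.2698.3 had 48, 58 and 21 counts in vehicle, the lowest in C4, and 58, 60 and 67 in TEPP-46. The share of Hif1a-201 in all Hif1a counts was 42.1 ± 1.21% in vehicle and 41.0 ± 1.78% in TEPP-46 (SD over 3 libraries; p = 0.4, exact two-sided permutation test), and that of Hif1a-202 was 16.5 ± 6.09% and 16.2 ± 3.76% (p = 0.9 by the same exact test). With 3 samples against 3, this test cannot give a p below 0.1.

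Epas1 (chr17:86753700-86833410, plus strand) encodes HIF-2 alpha, the alpha subunit known from endothelial and glial cells. It was at 9.55, 10.9 and 19.7 CPM in vehicle and at 13.4, 13.7 and 12.6 CPM in TEPP-46. The 3 TEPP-46 values lay inside the vehicle range, whose upper end was C4 alone. The log2 fold change was -0.02 (SE 0.29, 95% interval -0.67 to 0.62), with an edgeR adjusted p of 0.998, and it was 0.36 without C4. Without correction for length, Hif1a counts were 6.57, 6 and 2.83 times the Epas1 counts in the vehicle libraries and 5.32, 5.55 and 6.52 times in the TEPP-46 libraries. On the log2 scale this ratio was 2.27 ± 0.67 in vehicle and 2.53 ± 0.16 in TEPP-46 (SD over 3 libraries; p = 0.9, exact two-sided permutation test).

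Arnt (chr3:95434388-95497240, plus strand) encodes the constitutive partner of both alpha subunits. It was at 13.7, 15.3 and 11.3 CPM in vehicle and at 18.9, 8.36 and 9.04 CPM in TEPP-46. The TEPP-46 libraries were divided: T1 was the highest of all 6 and T2 and T3 were the lowest. The log2 fold change was -0.16 (SE 0.32, 95% interval -0.89 to 0.57; edgeR adjusted p = 0.997), and it was -0.64 without T1. The same division was present in 3 of its isoforms, which are parts of the gene count and not separate observations. Arnt-202, the most abundant annotated isoform, had 16, 23 and 16 counts in vehicle and 27, 11 and 13 in TEPP-46, and the new isoform ONT.7816.1 had 22, 28 and 16 and then 32, 12 and 13. ONT.7816.2, with 14, 20 and 15 and then 27, 11 and 13 counts, was also highest in T1. Arnt-205 had 9, 8 and 13 counts in vehicle and 14, 6 and 6 in TEPP-46. New isoforms made up 52.0% of Arnt counts.

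The 3 prolyl hydroxylase genes were at low to middle levels and none differed between the groups beyond the spread of the libraries. Egln1 (chr8:124908587-124949324, minus strand) encodes PHD2, the main oxygen sensor of most cells. It stood at 8.05, 7.89 and 7.38 CPM in vehicle and at 6.80, 8.18 and 7.16 CPM in TEPP-46, with overlapping groups and the smallest vehicle SD of the 10 genes (7.77 ± 0.353 CPM, SD, n = 3). Its log2 fold change was -0.09 (SE 0.23, 95% interval -0.60 to 0.43; edgeR adjusted p = 0.997). Egln2 (chr7:27158658-27166802, minus strand), which encodes PHD1, was at 18.0, 17.2 and 26.1 CPM in vehicle and at 16.6, 18.1 and 20.5 CPM in TEPP-46. C4 was the high library here, and the log2 fold change of -0.16 (SE 0.22; edgeR adjusted p = 0.993) was 0.05 without it. Egln2 overlaps Cyp2t4, which lies on the other strand and had at most 1 count in a library.

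Egln3 (chr12:54178981-54203860, minus strand) encodes PHD3, itself a known HIF target whose RNA is induced by hypoxia in many cells. It rested on 53 counts in vehicle and 50 in TEPP-46, at 2.62, 2.63 and 4.54 CPM in vehicle and 2.82, 3.91 and 2.07 CPM in TEPP-46. Vehicle library C4 was again the highest. The log2 fold change was -0.16 with SE 0.39 and a 95% interval of -1.04 to 0.73 (edgeR adjusted p = 0.997), and it was 0.15 without C4. The log2 ratio of Egln3 to Egln1 was -1.30 ± 0.52 in vehicle and -1.37 ± 0.37 in TEPP-46 (SD over 3 libraries; p = 0.8, exact two-sided permutation test).

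Hif1an (chr19:44562850-44576274, plus strand) encodes the asparaginyl hydroxylase FIH. It stood at 8.05, 11.2 and 6.43 CPM in vehicle and at 13.3, 10.3 and 11.9 CPM in TEPP-46. One TEPP-46 library, T2, lay below the highest vehicle library, C2, and the other two lay above all vehicle libraries. The log2 fold change of 0.45 (SE 0.26, 95% interval -0.14 to 1.03) was the largest positive value of the 10 genes but had an unadjusted p of 0.120 and an edgeR adjusted p of 0.930. It was 0.70 without C2 and 0.28 without C4. Vhl (chr6:113623959-113631633, plus strand) was at 17.0, 18.9 and 16.6 CPM in vehicle and at 15.9, 16.9 and 15.6 CPM in TEPP-46. Its groups overlapped, with a log2 fold change of -0.13 (SE 0.18, 95% interval -0.53 to 0.27; edgeR adjusted p = 0.993), and all its counts came from the isoform Vhl-201. Epas1, Egln1, Egln3 and Hif1an each had a single isoform, and the main Egln2 isoform held 95.8% of Egln2 counts.

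The values of C4 stood at an end of the range in many of these genes. C4 had the highest Epas1, Egln2, Egln3 and Vegfb and the lowest Hif1a and Hif1an of the 6 libraries, and its Vegfa, given below, was level with that of C2 at the top. It was also the library with the lowest summed markers of oligodendrocytes, astrocytes, activated microglia, choroid plexus and ependyma given above, and with the highest summed neuron markers (7470 CPM). The part of that difference in the values of these genes was not tested.

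Vegfa (ENSMUSG00000023951, chr17:46016993-46032369, minus strand) encodes the growth factor that drives the growth and permeability of blood vessels and is a known HIF target. It stood at 9.18, 15.1 and 15.1 CPM in the vehicle libraries and at 4.48, 7.83 and 9.61 CPM in the TEPP-46 libraries, from 49, 86 and 80 counts and 27, 44 and 51 counts. The groups overlapped at 1 point, since T3 lay above C1. The gene count includes the isoforms Vegfa-211, Vegfa-212 and Vegfa-213, at 2, 2 and 2 counts in C1 and 6, 5 and 6 in T3. Whether these near-equal counts stand for separate reads is not known, and the overlap may depend on it. The means were 13.1 ± 3.43 CPM in vehicle and 7.31 ± 2.60 CPM in TEPP-46 (mean ± SD, 3 libraries each), a ratio of 0.556. The log2 fold change was -0.87 with SE 0.33 and a 95% interval of -1.60 to -0.13, the lowest of the 10 genes. Its unadjusted edgeR p was 0.0264 and its adjusted p 0.758, and DESeq2 gave an adjusted p of 0.705, so the difference did not pass by either tool. In the authors' deposited table Vegfa has a p of 0.0198 and a log2 fold change of -0.53 and is not called.

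Vegfb (ENSMUSG00000024962, chr19:6982473-6987651, minus strand) encodes a ligand of FLT1 with weak action on vessel growth, known from heart, muscle and brain. It stood at 83.9, 79.5 and 128 CPM in vehicle and at 41.0, 70.4 and 70.1 CPM in TEPP-46. Every TEPP-46 library lay below every vehicle library, with T1 the lowest and C4 the highest. The means were 97.0 ± 26.7 CPM and 60.5 ± 16.9 CPM (mean ± SD, 3 libraries each), a ratio of 0.624 from 1576 and 1015 counts. The log2 fold change was -0.69 with SE 0.25 and a 95% interval of -1.27 to -0.12. The unadjusted edgeR p was 0.0232 and the adjusted p 0.731, and the adjusted p of DESeq2 was 0.395. Without C4 the log2 fold change was -0.44, with an edgeR adjusted p of 1.00. In the authors' deposited table its p is 0.00751 and its log2 fold change -0.53, with no call.

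**Figure D2:**
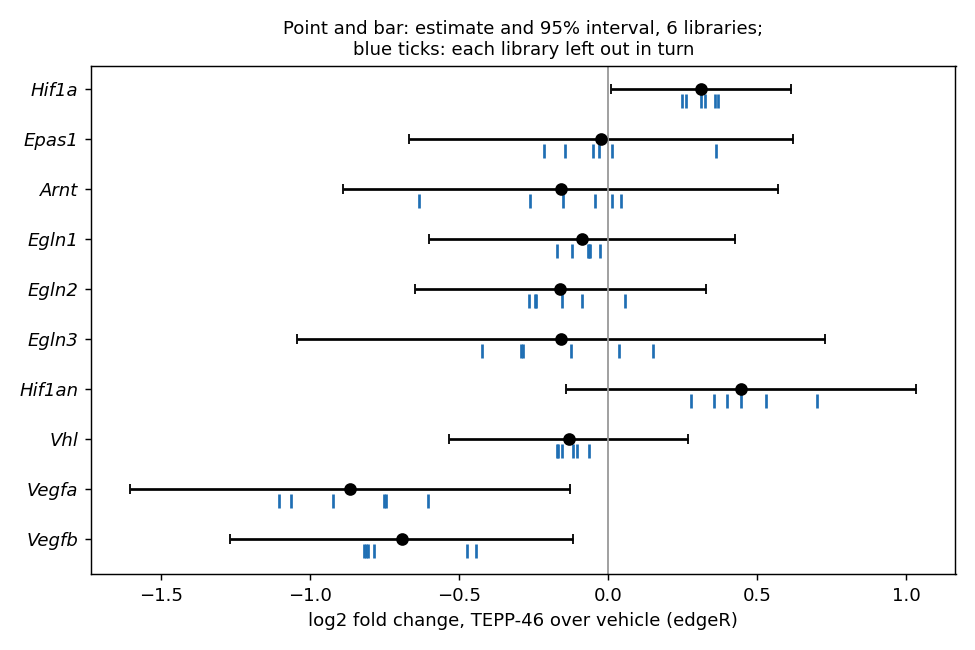
Log2 fold change of TEPP-46 over vehicle (x axis, edgeR) for each of the 10 genes (y axis), with the 95% interval from all 6 libraries as a bar and the value after leaving out each library in turn as blue ticks below it. The intervals of Hif1a (0.01 to 0.61), Vegfa (-1.60 to -0.13) and Vegfb (-1.27 to -0.12) do not reach 0 before adjustment, and the ticks of Epas1, Arnt, Egln2 and Egln3 fall on both sides of 0.

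Isoforms of Vegfa differ by exons 6 and 7, which encode basic stretches that bind heparan sulfate and neuropilins and so set how far the protein diffuses. Both exons are shown in capitals, with 15 bases of the neighbouring exons in lower case, because the isoform counts below turn on them. Exon 6 lies at chr17:46022277-46022348 (72 bases) and exon 7 at chr17:46020991-46021122 (132 bases), both coding and numbered as in Vegfa-207. Vegfb forms differ by the start of exon 6: capitals in the third line mark the 101 coding bases (chr19:6985496-6985596) that Vegfb-201 has and Vegfb-202 lacks. All are read 5′ to 3′ on the minus strand of GRCm38.
Vegfa exon 6: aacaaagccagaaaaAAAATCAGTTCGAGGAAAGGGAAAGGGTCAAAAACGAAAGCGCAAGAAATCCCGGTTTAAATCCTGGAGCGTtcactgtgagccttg
Vegfa exon 7: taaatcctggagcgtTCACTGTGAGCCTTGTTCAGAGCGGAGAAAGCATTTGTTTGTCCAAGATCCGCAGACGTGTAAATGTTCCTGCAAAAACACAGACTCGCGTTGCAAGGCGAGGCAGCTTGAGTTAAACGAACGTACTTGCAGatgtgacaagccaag
Vegfb-201 exon 6 start: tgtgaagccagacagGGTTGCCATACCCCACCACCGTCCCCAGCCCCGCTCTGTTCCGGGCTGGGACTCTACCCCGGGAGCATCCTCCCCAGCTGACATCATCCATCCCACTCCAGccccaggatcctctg

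Of the 35 isoforms of the 10 genes, 33 had a count and 22 passed the filter on low counts and were tested. No isoform of the 33854 tested was called (0%; edgeR, smallest adjusted p 0.254), and DESeq2 called 0.419% of its isoforms, none of them from these genes. At an unadjusted p under 0.05, 6 of the 22 were reached, all with lower values in TEPP-46, where 3.9% of tested isoforms were lower and 1.88% higher. They were Vegfa-202, Vegfa-207, Vegfb-201, Vegfb-202, ONT.6324.2 and ONT.6324.6, the last 2 being new isoforms of Vegfb. In 5 of the 22, all of these but ONT.6324.6, each TEPP-46 CPM lay below each vehicle CPM, where 5.18% of tested isoforms did. Isoforms of a gene are not independent: Vegfa-211, Vegfa-212 and Vegfa-213 had the same count in 5 of 6 libraries, so lower values in several isoforms of a gene are not separate differences.

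Vegfa-202, which has exon 7 and lacks exon 6, had 22, 27 and 28 counts in vehicle and 14, 17 and 13 in TEPP-46. Vegfa-207, with both exons, had 18, 19 and 23 counts in vehicle and 10, 11 and 11 in TEPP-46. In both, all 3 TEPP-46 counts were below all vehicle counts, although the gene as a whole overlapped. Their log2 fold changes were -0.88 (SE 0.29) and -0.98 (SE 0.33), each with an edgeR adjusted p of 0.650. Vegfa-201, with neither exon, had 2, 10 and 4 counts in vehicle and 3, 7 and 6 in TEPP-46 and was too low to be tested.

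The makeup of Vegfa did not differ beyond the spread of the libraries. Isoforms with exon 7 took 83.0 ± 7.13% of the Vegfa counts in vehicle against 79.6 ± 8.41% for TEPP-46 (SD over 3 libraries; p = 0.7, exact two-sided permutation test). Those with exon 6 or part of it took 40.4 ± 2.27% and 36.7 ± 4.69% (p = 0.3 by the same exact test), and those with neither 14.7 ± 6.39% and 19.1 ± 6.95% (p = 0.5 by the same exact test). Vegfa-211 has neither exon, Vegfa-212 has exon 7 and Vegfa-213 has both, yet their counts were equal in 5 of 6 libraries. Their reads may not have been told apart at these exons, so the shares may partly reflect how reads were divided.

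Vegfb-201, the longer form, had 154, 138 and 227 counts in vehicle and 69, 123 and 116 in TEPP-46. Vegfb-202 had 104, 95 and 152 counts and then 44, 82 and 82. Both forms had their groups apart and both were lower in TEPP-46 by nearly the same amount. The log2 fold changes were -0.83 (SE 0.28) and -0.83 (SE 0.29), with edgeR adjusted p of 0.709 and 0.735. Of all Vegfb counts, Vegfb-201 made up 32.8 ± 2.08% in vehicle and 30.1 ± 1.84% in TEPP-46 (SD over 3 libraries; p = 0.3, exact two-sided permutation test), and Vegfb-202 made up 22.2 ± 1.15% and 20.2 ± 2.16% (p = 0.2 by the same exact test). Vegfb-201 made up 59.6 ± 0.342% of the counts of the annotated pair in vehicle and 59.9 ± 1.24% in TEPP-46 (p = 0.7 by the same exact test). New isoforms took 46.5% of Vegfb counts: ONT.6324.6 had 54, 69 and 102 counts in vehicle and 35, 52 and 55 in TEPP-46, and ONT.6324.2 had 51, 60 and 80 and then 33, 48 and 49. ONT.6324.1, at 55, 50 and 72 and then 41, 52 and 43 counts, had overlapping groups. A test of isoform usage, which asks whether the proportions within a gene differ, covered 4 of the 10 genes (Hif1a, Arnt, Vegfa and Vegfb) and called none of them (edgeR's diffSpliceDGE, unadjusted Simes p of 0.982, 0.987, 0.920 and 0.921, adjusted p 1.00 each). It called 0.0131% of 7639 genes in all, and 0.641% had an unadjusted p under 0.05.

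**Figure D3:**
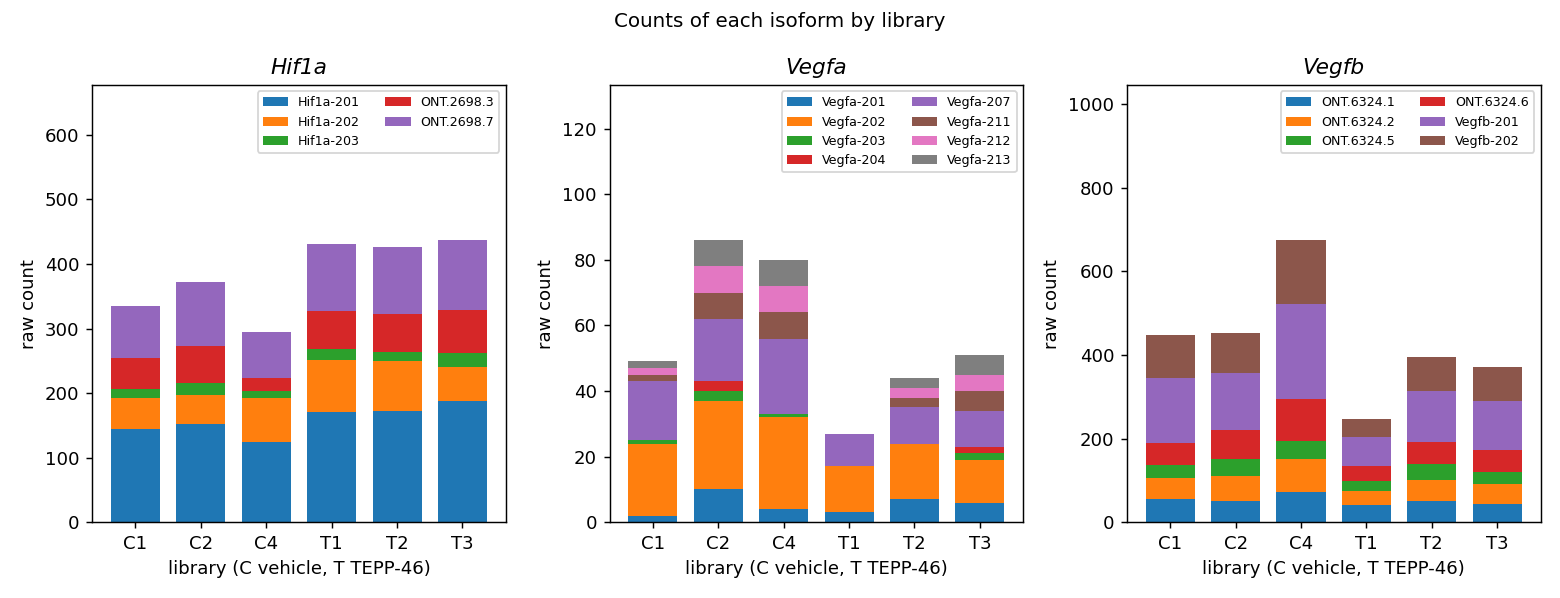
Raw counts (y axis, stacked, starting at 0) of each isoform of Hif1a, Vegfa and Vegfb in every library (x axis; C vehicle, T TEPP-46), each colour an isoform as named in the legend. The bars of Hif1a are taller in T1, T2 and T3 than in vehicle and those of Vegfb are shorter, while the division into colours stays similar, with Vegfb-201 at 138 to 227 counts in vehicle and 69 to 123 in TEPP-46.

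Within a library, the log2 ratio of Vegfa to Vegfb was -2.89 ± 0.43 in vehicle and -3.08 ± 0.18 in TEPP-46 (SD over 3 libraries; p = 0.6, exact two-sided permutation test). The ratio of each ligand to Hif1a was added after the values were seen and is a description with no test. Vegfa counts per Hif1a count were 0.146, 0.231 and 0.272 in the vehicle libraries and 0.0626, 0.103 and 0.117 in the TEPP-46 libraries. All TEPP-46 ratios lay below all vehicle ratios, with a difference of -1.20 on the log2 scale. For Vegfb the counts per Hif1a count were 1.34, 1.22 and 2.30 in vehicle and 0.573, 0.927 and 0.851 in TEPP-46, a difference of -1.02 on the log2 scale and again without overlap. Hif1a and Vegfb each had their groups apart, in opposite directions, so their ratio had to be apart as well. The ratio of Vegfa to Hif1a likewise joins the lower Vegfa and the higher Hif1a given above and is no separate result.

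To order the genes, CPM was divided by the length of the most abundant annotated isoform in kilobases. A long read can stand for a whole transcript, so counts need not grow with length, and whether they did here was not tested. Where they do not, the division sets short transcripts too high. Vegfb had the highest level at 61.5 ± 22.1 CPM per kilobase (SD over 6 libraries), above Hif1a in all 6 libraries. Before division by length, by contrast, Vegfb lay above Hif1a in the 3 vehicle libraries and below it in the 3 TEPP-46 libraries. Hif1a followed at 14.6 ± 2.04, above Egln2 in 5 of 6 libraries, then Egln2 at 9.22 ± 1.68 and Vhl at 6.04 ± 0.417 CPM per kilobase, each above the next in all 6. The next 3 could not be ordered: Vegfa (2.96 ± 1.22), Arnt (2.95 ± 0.926) and Epas1 (2.41 ± 0.634 CPM per kilobase) lay above their neighbour in only 3 or 4 of 6 libraries. Egln1 (2.11 ± 0.152), Hif1an (1.65 ± 0.409) and Egln3 (1.16 ± 0.349 CPM per kilobase) came last, with Egln1 above Hif1an and Hif1an above Egln3 in 5 of 6 libraries each.

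HIF binds DNA at a core of ACGTG or GCGTG. These letters were searched on both strands in RefSeq promoter windows (GRCm38.p6, 300 bases, of which 250 lie before the start). Windows were found for 9 of the 10 genes, 11 in all, since Egln2 and Vegfa have 2 each; Epas1 had no entry. Of these 11 windows, 5 held ACGTG, 6 held GCGTG and 8 held either, against 19.6%, 32.4% and 43.8% of all 32851 windows. The windows of Vhl and Hif1an had neither, nor had the first window of Vegfa. The second window of Vegfa, which lies inside the gene (chr17:46025114-46025413), had 1 of each. Sites farther than 250 bases before a start were not searched. Stretches with matches are printed for 5 of the genes, 5′ to 3′ on the gene's strand, with matches in capitals; where matches on both strands overlap, the capital run is longer. The matches of Arnt and Vegfa, and further matches of Egln1 and Egln2, are not printed. A match is a run of letters and no factor's binding was measured.
Hif1a (chr12:73907717-73907816): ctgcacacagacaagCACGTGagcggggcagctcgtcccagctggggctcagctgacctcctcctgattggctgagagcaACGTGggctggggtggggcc
Egln1 (chr8:124949361-124949395): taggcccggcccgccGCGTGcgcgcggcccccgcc
Egln2 (chr7:27166831-27166865): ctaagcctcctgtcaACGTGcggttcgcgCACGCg
Egln3 (chr12:54204084-54204118): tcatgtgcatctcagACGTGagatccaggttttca
Vegfb (chr19:6987869-6987901): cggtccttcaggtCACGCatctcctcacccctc
Vegfb (chr19:6987713-6987747): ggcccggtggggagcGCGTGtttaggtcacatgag

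Other genes of the pathway were read in 5 lists of 81 entries, of which 67 were tested. None was called by edgeR with Benjamini-Hochberg adjustment, and 4 had an unadjusted p under 0.05, all with higher values in TEPP-46, where 1.88% of all tested genes were higher and 4.05% lower. Of HIF subunits and transcription partners, all 8 were tested, 4 had a positive log2 fold change and the median was 0.03. Hsp90aa1, the chaperone of the alpha subunit, was at 1049 ± 117 CPM in vehicle and 1122 ± 82.8 CPM in TEPP-46, and its sister Hsp90ab1 at 807 ± 30.6 and 793 ± 64.9 CPM. Arnt2, the partner subunit of neurons, was at 108 ± 22.2 and 143 ± 25.6 CPM (mean ± SD, 3 libraries each), with a log2 fold change of 0.40 (edgeR adjusted p = 0.838).

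Of the VHL ubiquitin ligase and HIF turnover genes, all 10 were tested, 4 were positive and the median log2 fold change was -0.03. Elob and Eloc, which join VHL to its cullin, were at 590 ± 68.9 and 336 ± 33.5 CPM in vehicle and at 580 ± 32.4 and 320 ± 16.7 CPM in TEPP-46 (mean ± SD, 3 libraries each). Stub1, a ligase that also acts on the alpha subunit, was at 181 ± 33.1 and 157 ± 11.6 CPM. Os9, a lectin of the endoplasmic reticulum reported to bind the alpha subunit, was at 77.2 ± 11.9 and 98.0 ± 3.44 CPM, with groups apart, a log2 fold change of 0.33, an unadjusted p of 0.0473 and an edgeR adjusted p of 0.838.

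The list of HIF target genes of glucose use had 21 entries, Aldoa being 2 of them by identifier, and 20 were tested, of which 6 were positive. Their median log2 fold change was -0.02. Gapdh, the most abundant, was at 15308 ± 185 CPM in vehicle and 15315 ± 735 CPM in TEPP-46, and Aldoc, the aldolase of astrocytes, at 1653 ± 329 and 1674 ± 99.2 CPM (mean ± SD, 3 libraries each). Pkm, which encodes the enzyme that TEPP-46 activates, was at 2286, 2213 and 2253 CPM in vehicle and at 2558, 2643 and 2257 CPM in TEPP-46, with a log2 fold change of 0.13 and an edgeR adjusted p of 0.973. Pfkfb3, which makes the activator of phosphofructokinase, was at 10.5, 9.47 and 8.89 CPM in vehicle and at 13.4, 20.6 and 17.1 CPM in TEPP-46. All TEPP-46 values were above vehicle, with a log2 fold change of 0.81 (SE 0.23), an unadjusted p of 0.00560 and, in edgeR, an adjusted p of 0.559.

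Of 30 HIF target genes outside glycolysis, 21 were tested and 15 were positive, with a median log2 fold change of 0.20 against 0.01 for all genes, and none reached an unadjusted p of 0.05. Values ran from -0.12 (Ero1l, an oxidase of the endoplasmic reticulum) to 0.60 (P4ha2, a collagen prolyl hydroxylase). Trf, transferrin, was at 200 ± 128 CPM in vehicle and 265 ± 53.4 CPM in TEPP-46. Its lowest value was 67.9 CPM in C4, the library with the lowest summed markers of oligodendrocytes and of several other cell types. The part of these cell types in the Trf values was not tested. The mitophagy genes Bnip3 and Bnip3l had log2 fold changes of -0.10 and -0.02, Bnip3l being at 190 ± 9.33 CPM in vehicle and 189 ± 9.68 CPM in TEPP-46 (mean ± SD, 3 libraries each). The 9 untested members, among them Adm, Car9, Epo and Edn1, were near or under 1 CPM in both groups.

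In the VEGF family and its receptors, 8 of 12 were tested, 4 were positive and the median log2 fold change was -0.01. Flt1, the receptor of both ligands, was at 12.3 ± 3.78 CPM in vehicle and 9.64 ± 1.02 CPM in TEPP-46 (mean ± SD, 3 libraries each), and Nrp1, a co-receptor, at 7.20 ± 2.94 and 7.86 ± 0.716 CPM. Nrp2, another co-receptor, was at 13.9, 13.3 and 14.9 CPM in vehicle and at 20.1, 22.4 and 18.5 CPM in TEPP-46. Its groups were apart, with a log2 fold change of 0.52 (SE 0.18), an unadjusted p of 0.0188 and an edgeR adjusted p of 0.700. Tek, the angiopoietin receptor, was at 3.37, 3.16 and 2.84 CPM in vehicle and at 5.98, 15.1 and 5.46 CPM in TEPP-46. These groups were apart too, with T2 far above the others, a log2 fold change of 1.49 (SE 0.43), an unadjusted p of 0.00726 and an edgeR adjusted p of 0.609. Summed endothelial markers, where Flt1 and Tek are mainly expressed, were 291 to 392 CPM in vehicle and 337 to 347 CPM in TEPP-46.

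**Figure D4:**
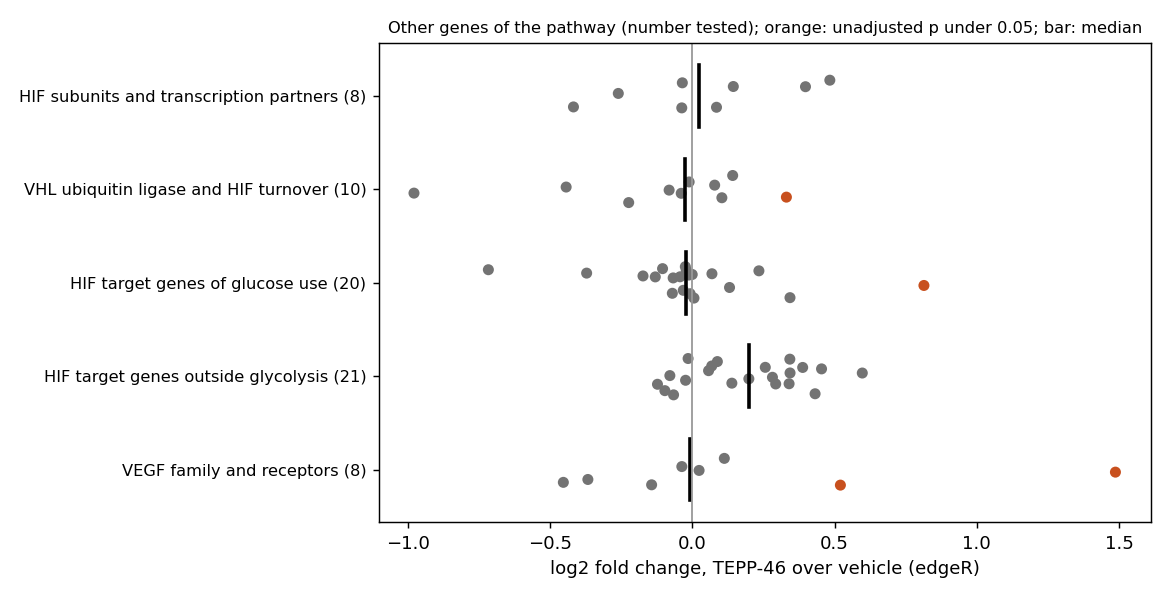
Log2 fold change of TEPP-46 over vehicle (x axis, edgeR) of each tested gene in the 5 pathway lists (y axis, number tested in parentheses), with the median of each list as a bar and genes at an unadjusted p under 0.05 in orange. The medians run from -0.03 to 0.20 and the 4 orange points (Os9, Pfkfb3, Nrp2 and Tek) are all positive, none of them passing after adjustment.

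The genes most like Hif1a and Vegfa in their pattern were sought among 6127 genes with a mean of at least 20 CPM, by Pearson's r of log2 (CPM + 1) over the 6 libraries, which share their totals and group. Most like Hif1a were Hmga1b (r = 0.994), Fgf1 (r = 0.992) and Hmga1 (r = 0.984). Hmga1b is a near-identical copy of Hmga1, so reads may have been divided between them, and Fgf1 is a growth factor of neurons and glia. Fgf1 was at 24.5, 27.4 and 20.4 CPM in vehicle and at 32.9, 35.0 and 45.4 CPM in TEPP-46, in the same order of libraries as Hif1a. Most like Vegfa were Adcy3, an adenylyl cyclase (r = 0.999), Dnlz, a mitochondrial chaperone partner (r = 0.989), and Bin1, a membrane-shaping protein (r = 0.983). Adcy3 was at 40.5, 50.7 and 50.5 CPM in vehicle and at 29.4, 38.1 and 40.9 CPM in TEPP-46, where T3 again lay above C1. With 6 points and 6127 genes searched, values of r this high describe these libraries only.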

How the data were processed

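The members and lists were chosen with earlier results of these data known. Per the file headers, the authors deposited raw counts per gene and isoform for 6 libraries, 2 tables in all, with columns for p-values, log2 fold changes and calls from DESeq2; other values in these tables were used only where named. DESeq 1.10.1 and the build GRCm38 are named in the submitters' processing notes. Those sources do not give the aligner, the counting tool, the use of strand or how reads matching more than one isoform were handled (not given in the sources used here). Columns with C were taken as vehicle and columns with T as TEPP-46 by their letter; 1 of the vehicle columns has a number, 4, that no label has, so columns were not tied to numbered samples and the test has no replicate block. A further 12 columns of values per library were not used.

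CPM was computed from the counts. Genes and isoforms were tested with edgeR 4.0.16 (filterByExpr, TMM, quasi-likelihood F test with robust estimation, group as the single term) in R 4.3.3, with Benjamini-Hochberg adjustment over all tested features and a threshold of 0.05; SE is the fold change over the root of F. DESeq2 1.42.0, other scalings, other count filters and leaving out each library were alternatives. The edgeR test was tested on simulated data with 200 changed genes. Shares and ratios were compared by an exact two-sided permutation test. Within a group, counts of 2 libraries differed by 5.53 to 23.9 times sampling noise (chi-square per degree of freedom), more than counting noise. Between the groups this value ran over a similar range, from 6.06 (C2 and T3) to 21.9 (C4 and T3). Exons and positions are from GENCODE on GRCm38, the files' build. Named genes were all 10 members, Pkm, the 3 most abundant of each list, list members with groups apart and an unadjusted p under 0.05, isoforms with at least 10% of a gene's counts (at most 5 a gene), and the 3 genes most alike Hif1a and Vegfa; isoforms and list members named beyond these were chosen after their values were seen.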

Additional observations from a re-analysis of the deposited data

How the results depend on the processing

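The numbers 1 and 2 occur among the columns of both groups, and 2 shared numbers do not show that the libraries are paired. Deviations from the group means correlated with r = 0.14 between C1 and T1 and r = 0.035 between C2 and T2, over 14441 genes. Pairs with unlike numbers ran from r = -0.28 (C2 and T1) to r = 0.28 (C2 and T3). With the column number as a replicate block, added after seeing the data, 0 genes were called (1004 at an unadjusted p under 0.05). C4 and T3 are each alone in their block, so the group difference in that fit rests on C1, C2, T1 and T2. There the log2 fold change was 0.40 for Epas1 and 0.34 for Egln3, with the opposite sign to the fit without the block. Leaving out C4 alone also made them positive, at 0.36 for Epas1 and 0.15 for Egln3. None of the 10 genes passed in any alternative; the lowest adjusted p was 0.318, for Vegfb without C2. Hif1a (0.20 to 0.37), Hif1an (0.28 to 0.70), Egln1 (-0.17 to -0.03), Vhl (-0.17 to -0.06), Vegfa (-1.11 to -0.60) and Vegfb (-0.82 to -0.44) kept the sign of their log2 fold change in every alternative that gave a value; the stricter count filter left out Egln1, Egln3 and Vegfa. DESeq2 called 85 genes and 148 isoforms. Leaving out 1 library gave 0 to 43 genes (43 without C2), 0 to 178 isoforms (178 without C2) and 0 to 1 genes with changed isoform usage. It turned the sign for Epas1 (-0.22 to 0.36), Arnt (-0.64 to 0.042), Egln2 (-0.27 to 0.055) and Egln3 (-0.42 to 0.15). Differences in share ran from -8.13 to 0.0384 points for Vegfa with exon 7, from -2.51 to 3.18 for Hif1a-202 and from -1.83 to 0.547 for Arnt-202. With annotated isoforms as the denominator the difference was 0.279 points for Vegfb-201 and 0.503 for Hif1a-202. Log2 ratios ran from -0.12 to 0.49 for Hif1a to Epas1, from -0.34 to 0.058 for Vegfa to Vegfb and from -0.23 to 0.23 for Egln3 to Egln1. Ranked by CPM per kilobase instead of CPM, Epas1 moved from 5 to 7, Vegfa from 7 to 5, Egln1 from 9 to 8 and Hif1an from 8 to 9. These changes of rank follow from the division by length. The cause of the other shifts given above was not tested. Counts were enough to test 22 of the 35 isoforms.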
